A study of Mus musculus with 17 samples.

Results

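The type 2 immune axis was followed through 10 genes out of the 45777 that the count table lists: the cytokines Il4, Il5 and Il13, the alarmins Il33 and Tslp, the IL-33 receptor gene Il1rl1, the receptor chains Il4ra, Il13ra1 and Il13ra2, and the enzyme gene Il4i1. They were chosen by symbol, as the genes of IL-4, IL-5, IL-13, IL-33, thymic stromal lymphopoietin and their receptors. The rule itself uses no measured value, but earlier results of these data were known when the members were chosen. RNA was sequenced from lungs of wild-type male C57BL/6 mice that were 6 weeks old on arrival and were given a week to acclimatise. The left lung received 1 focal dose of 65 or 75 Gy, and control mice received no radiation. Lungs were collected after 2 or 6 weeks, which the study treats as the stages of pneumonitis and fibrosis. The 17 libraries comprised 3 control, 3 65 Gy and 3 75 Gy libraries of 2 weeks, and 3 control, 2 65 Gy and 3 75 Gy libraries of 6 weeks, and they are named here by the numbers of their labels. The study's methods state that RNA came from the lesions of irradiated tissue, while the site sampled in control lungs is not described in the sources used here. The labels do not state that each library came from its own mouse, so the p-values measure the spread between these libraries.

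Type 2 immunity is the arm of the immune response that acts against parasites and in allergy, and it also accompanies tissue repair. Damaged barrier cells release the alarmins IL-33 and TSLP. These act on group 2 innate lymphoid cells, T helper 2 cells and mast cells, which in turn secrete IL-4, IL-5 and IL-13. IL-4 and IL-13 signal through receptors that contain the IL-4 receptor alpha chain, activate STAT6 and turn macrophages to the alternative state. IL-13 is also known as a driver of collagen deposition in the lung.

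The libraries held between 46764569 and 66797879 counts on genes, with a median of 57608149. Levels are given as CPM, the count of a gene relative to the depth of its library after scaling with TMM factors. Differences are log2 fold changes from the quasi-likelihood test of edgeR, and the Benjamini-Hochberg method adjusted p over the 22052 genes that passed a filter on low counts. Calls required both an adjusted p of 0.05 or less and a log2 fold change of 1 or more in size, termed the fold limit here. All members except Il13 passed the filter. The table held 12058 values of 1 and 17397 values of 2, so that its lowest counts did not fall off evenly from 1 upwards, and intervals from single counts are approximate. Library 3134, of the 2-week 75 Gy group, stood apart from the other 2 of its group. Its summed macrophage marker level was 2524 CPM against 990 and 1307. For Il33, Il1rl1, Il13ra2 and Il4i1, results that rest on it are also given without it. Other means and fitted values of that group include it unless stated.

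Promoter sequences were shown for the members on which the results turn, because IL-4 and IL-13 act through STAT factors that bind short palindromes. Each line gives the 250 bases before a RefSeq transcript start on GRCm38.p6, from 5′ to 3′, and capitals mark a match to 1 of 2 motifs searched on both strands. These were the STAT6-type motif, in which TTC and GAA enclose 4 bases, and an interferon response core, in which GAAA stands on either side of 2 bases. The first 2 lines belong to Il33, at chr19:29924863-29925112 and chr19:29945540-29945789 (+ strand), the next to Il4i1, at chr7:44836038-44836287 (+ strand), and the next 2 to Il1rl1, at chr1:40429320-40429569 and chr1:40439379-40439628 (+ strand). The last belongs to Il4, at chr11:53618666-53618915 (− strand), and is shown because it holds matches to both motifs.
Il33 upstream start: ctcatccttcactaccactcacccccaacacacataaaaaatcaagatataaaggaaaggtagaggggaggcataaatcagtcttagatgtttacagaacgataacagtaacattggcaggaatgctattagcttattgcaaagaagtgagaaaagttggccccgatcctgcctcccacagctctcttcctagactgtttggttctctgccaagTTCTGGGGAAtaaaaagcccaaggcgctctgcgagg
Il33 downstream start: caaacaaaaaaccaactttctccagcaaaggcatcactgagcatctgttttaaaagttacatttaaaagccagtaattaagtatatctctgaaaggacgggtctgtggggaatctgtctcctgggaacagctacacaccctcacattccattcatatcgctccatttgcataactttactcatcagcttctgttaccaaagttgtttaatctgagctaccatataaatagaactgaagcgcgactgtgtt
Il4i1: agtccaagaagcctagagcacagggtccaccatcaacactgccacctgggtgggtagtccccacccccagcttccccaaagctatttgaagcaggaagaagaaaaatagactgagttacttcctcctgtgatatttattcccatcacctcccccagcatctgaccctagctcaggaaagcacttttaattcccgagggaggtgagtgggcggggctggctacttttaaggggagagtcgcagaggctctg
Il1rl1 upstream start: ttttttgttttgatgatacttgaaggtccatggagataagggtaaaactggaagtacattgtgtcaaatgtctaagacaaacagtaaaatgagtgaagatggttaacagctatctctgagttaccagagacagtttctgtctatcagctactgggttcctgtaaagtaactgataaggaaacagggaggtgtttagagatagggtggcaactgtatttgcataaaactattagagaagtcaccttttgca
Il1rl1 downstream start: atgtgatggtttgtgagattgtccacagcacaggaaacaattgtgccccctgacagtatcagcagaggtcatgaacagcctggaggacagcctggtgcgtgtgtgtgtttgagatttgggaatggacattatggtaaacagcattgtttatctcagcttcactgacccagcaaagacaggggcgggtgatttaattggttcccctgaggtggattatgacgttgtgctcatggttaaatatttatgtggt
Il4: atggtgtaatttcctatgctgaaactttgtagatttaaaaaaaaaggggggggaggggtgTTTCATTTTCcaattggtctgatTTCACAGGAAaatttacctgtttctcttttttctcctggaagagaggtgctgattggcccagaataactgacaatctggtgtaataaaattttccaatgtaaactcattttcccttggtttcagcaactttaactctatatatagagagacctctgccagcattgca

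Of 12 windows from 9 members, 3 held a match to these motifs or to the STAT-type motif TTCNNNGAA. Windows ran from 250 bases before to 50 bases after the start. No window of Tslp was searched. Il33 had TTCTGGGGAA 36 bases before its upstream start and no match before its downstream start. Il4 had TTCACAGGAA 167 bases before the start shown. TTTCATTTTC, the interferon-type match, lay 190 bases before it, and another Il4 start had TTCATGGAA 4 bases before it. No match lay in the windows of Il4i1 and Il1rl1. Among 32851 mouse promoter windows, 6.95% held the STAT6-type motif, 8.3% the STAT-type motif and 3.44% the interferon response core, and a match describes the sequence only.

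Against controls of the same time, 4 members were called, and all of these were higher in irradiated lungs. Il13ra1 was also higher, by less than the fold limit. Il4i1 was called at both doses and both times, Il33 at 6 weeks after both doses, Il1rl1 at 6 weeks after 75 Gy, and Il13ra2 after 75 Gy at both times from few counts. At 2 weeks, 1 of 9 tested members was called after 65 Gy, where 4.35% of all tested genes were called and 3.47% were called higher. After 75 Gy 2 of 9 were called, against 7.74% of all genes in either direction and 5.67% higher. At 6 weeks, 2 of 9 were called after 65 Gy, against 5.28% in either direction and 4.34% higher, and 4 of 9 after 75 Gy, against 10.4% and 7.28%. By the adjusted p alone, 2 and 5 members passed at 2 weeks and 3 and 5 at 6 weeks, for 65 and 75 Gy in turn, where 11%, 22.3%, 14.7% and 36.0% of all genes passed. The median log2 fold change over the tested members was 0.31 and 0.50 at 2 weeks and 0.80 and 0.74 at 6 weeks, for 65 and 75 Gy in turn, while the median over all tested genes lay between -0.01 and 0.04. The cytokines Il4, Il5 and Il13 and the alarmin Tslp were not called in any comparison.

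**Figure D1:**
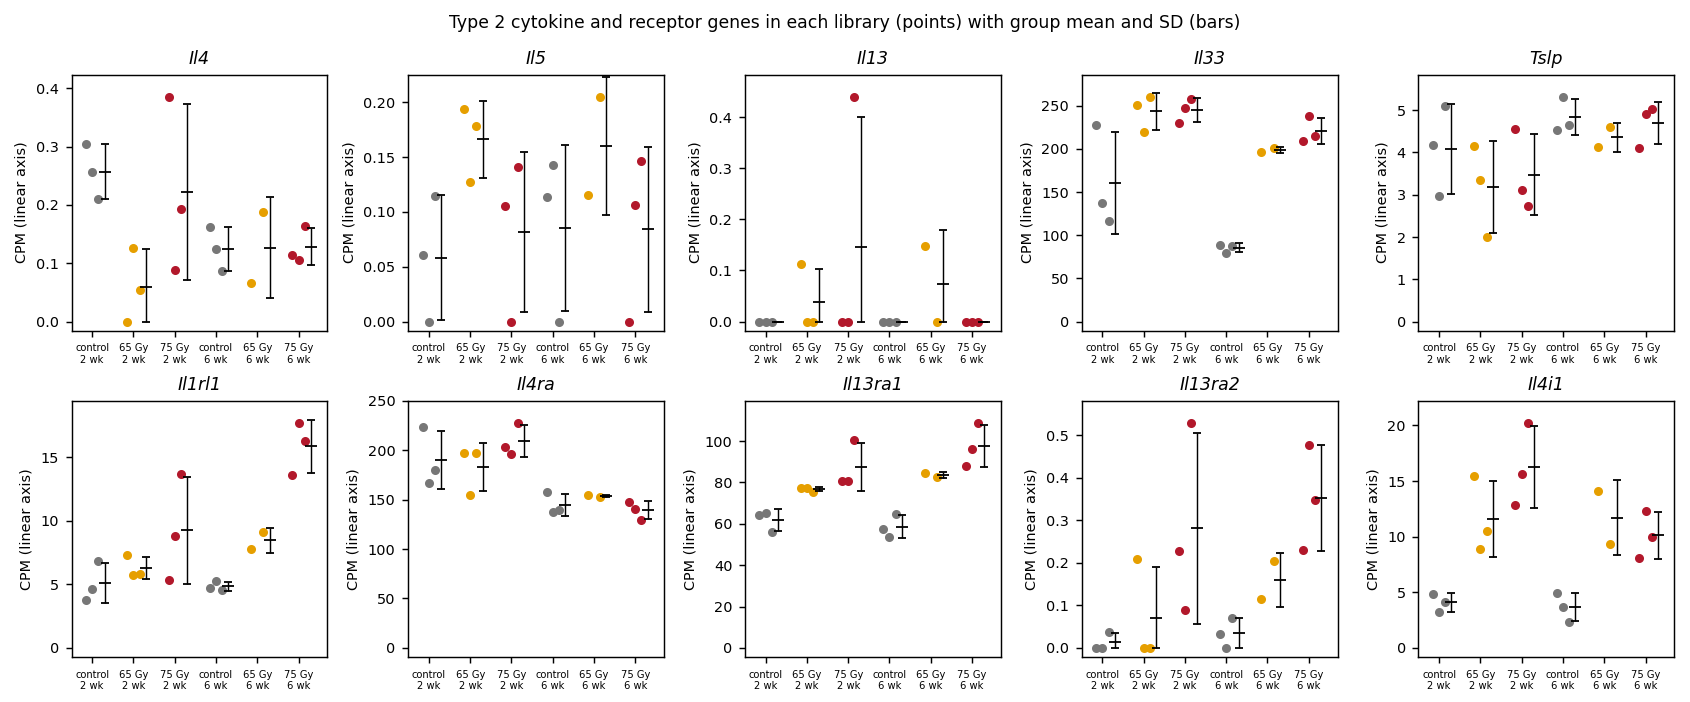
Level in CPM (vertical, linear axis) of each of the 10 genes in the 17 libraries, by dose and time (horizontal). Points are libraries, and the bars beside them give the group mean and SD, with bars drawn no lower than 0. All irradiated libraries lay above all controls for Il13ra1 and Il4i1, and Il13 was at 0 in 14 libraries.

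Per kilobase of exon, the levels of the members in control lungs spanned several orders of magnitude. Il33 had the highest control median, 35.6 CPM per kilobase, followed by Il4ra at 27.0 and Il13ra1 at 16.4. Tslp followed at 3.46, Il4i1 at 0.964 and Il1rl1 at 0.680 CPM per kilobase. The ranges of Il33 (27.5 to 78.9) and Il4ra (22.9 to 37.3) overlapped over the 6 controls, as did those of Il4i1 and Il1rl1. Il4 at 0.152, Il5 at 0.0567, Il13ra2 at 0.00711 and Il13 at 0 CPM per kilobase rested on few counts or none.

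Among the ligands, Il13, the cytokine most tied to fibrosis, had counts in 3 of 11 irradiated libraries and in 0 of 6 controls. It had 7 counts in library 3129 (65 Gy, 2 weeks), 25 in library 3134 (75 Gy, 2 weeks) and 9 in library 3138 (65 Gy, 6 weeks). A count of 0 allows up to 3 counts, or 0.0443 to 0.0642 CPM in these libraries, counting error only. The mean difference of 0.0609 CPM between irradiated and control libraries had an exact permutation p of 0.438 (2-sided, 4704 arrangements of dose within time). All 3 libraries of 75 Gy at 6 weeks were at 0, so that no Il13 was detectable there at this depth.

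Il4, the defining cytokine of T helper 2 cells, had between 0 and 22 counts per library. At 2 weeks its counts were 15, 12 and 11 in the controls and 0, 8 and 3 after 65 Gy, without overlap, and 13.5% of all tested genes lay lower without overlap there. The log2 fold change was -2.05 ± 0.77 (SE), with an adjusted p of 0.104 that missed the threshold. After 75 Gy at 2 weeks the counts were 22, 6 and 11, which spanned those of the controls (log2 fold change -0.22, adjusted p = 0.856). At 6 weeks the log2 fold changes were 0.02 and 0.03 for 65 and 75 Gy, with 95% intervals of -1.76 to 1.79 and -1.55 to 1.62.

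Il5, which drives the maturation of eosinophils, ranged from 0 to 12 counts per library, and 4 libraries were at 0. Its largest difference was after 65 Gy at 2 weeks, where 8 to 12 counts stood against 0 to 6 in the controls without overlap (log2 fold change 1.44, adjusted p = 0.489). By the same measure, 15.9% of all tested genes lay higher without overlap there. In the other 3 comparisons with controls the log2 fold changes lay between -0.04 and 0.89, and the counts of irradiated and control libraries overlapped. The 95% interval after 75 Gy at 2 weeks ran from -2.24 to 3.06 on the log2 scale, so that changes of several fold in either direction lay inside it.

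Il33, at chr19:29925113-29960718, encodes an alarmin that is stored in the nuclei of barrier cells. In the 2-week controls it had 227.6, 137.6 and 116.6 CPM, with 251.3, 219.5 and 260.0 after 65 Gy and 230.5, 247.5 and 258.2 after 75 Gy. In the 6-week controls it had 89.0, 79.3 and 87.6 CPM, with 196.4 and 201.5 after 65 Gy and 209.2, 238.3 and 215.0 after 75 Gy. The 6-week irradiated libraries lay above the controls without overlap, as did 28.2% of all tested genes after 65 Gy and 29.4% after 75 Gy. At 2 weeks control library 3126 lay within the range of 65 Gy and just below that of 75 Gy. The 75 Gy libraries of 2 weeks thus did not overlap the controls, as held for 15.5% of all tested genes. The other 2 controls of 2 weeks lay well below 3126. Il33 shares 1932 bases of its span with the lncRNA gene Gm41832, which had 0 to 18 counts.

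At 6 weeks, Il33 rose 2.33-fold after 65 Gy (log2 fold change 1.22 ± 0.19 (SE), adjusted p = 0.000961) and 2.59-fold after 75 Gy (1.37 ± 0.18, adjusted p = 6.91e-05). At 2 weeks the log2 fold changes were 0.60 (adjusted p = 0.0389) and 0.61 (adjusted p = 0.0204), under the fold limit. Without library 3126 they were 0.94 and 0.96, still under it. In fits of only the groups compared, the adjusted p at 2 weeks was 0.158 for 65 Gy and 0.186 for 75 Gy. Without library 3134 the 75 Gy value at 2 weeks was 0.57 (adjusted p = 0.0621).

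Il33 also differed between the controls of the 2 times. It had 160.6 ± 59.0 CPM (SD, n = 3) in the 2-week controls and 85.3 ± 5.25 in the 6-week controls (log2 fold change -0.91, adjusted p = 0.0186), which passed the adjusted p but not the fold limit. Among all tested genes, 1.63% passed the adjusted p in this comparison. This difference depended on 3126 in size: it was -0.58 without that library, and -1.01 and -1.10, past the limit, without 3127 or 3128. Irradiated lungs of 2 weeks had mean Il33 levels of 243.6 ± 21.3 and 245.4 ± 14.0 CPM (SD, n = 3), and those of 6 weeks 198.9 ± 3.59 (n = 2) and 220.8 ± 15.4 (n = 3). The difference between the effect at 6 weeks and that at 2 weeks was 0.62 for 65 Gy (unadjusted p = 0.0307, adjusted p = 0.549) and 0.76 for 75 Gy (unadjusted p = 0.00754, adjusted p = 0.183, edgeR's quasi-likelihood test). Neither passed the adjustment, so that an increase of the effect with time was not shown.

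Il33 is made in the mouse lung mainly by alveolar type 2 cells, and their markers were listed beside it. The summed level of 8 alveolar type 2 markers, led by Sftpc, was 21631 to 32079 CPM in controls and 18528 to 34132 in irradiated libraries. At 6 weeks it was 21631 to 23923 in the controls and 25565 to 34132 in irradiated lungs, without overlap, and 1 of the 8 genes was called higher after each dose. Control library 3126 had the highest sum of its group, 32079 CPM. Summed fibroblast markers, led by Col3a1, were 1611 to 1931 CPM in the 6-week controls and 2050 to 2535 in the 6-week irradiated libraries, and 1 of 7 was called higher after 75 Gy. Their part in the Il33 result was not tested. In bulk tissue, fewer or more cells of a type and less or more RNA per cell cannot be told apart.

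Tslp encodes an epithelial alarmin that acts through Crlf2 and Il7r. It lay between 2.98 and 5.31 CPM in controls and between 2.01 and 5.04 in irradiated libraries. Its log2 fold changes were -0.36, -0.24, -0.15 and -0.04 for 65 and 75 Gy at 2 weeks and then at 6 weeks, with adjusted p from 0.412 to 0.908. The mean over the 4 effects was -0.20 with a 95% interval of -0.53 to 0.14, which does not reach the fold limit in either direction.

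Il1rl1, at chr1:40404864-40465418, encodes ST2, the receptor of IL-33 on mast cells, group 2 innate lymphoid cells and a set of regulatory T cells. At 6 weeks it had 4.70, 5.24 and 4.59 CPM in the controls, 7.78 and 9.13 after 65 Gy, and 13.6, 17.7 and 16.3 after 75 Gy. The 3 groups of 6 weeks stood in separate ranges, in the order of the dose. Without overlap at 6 weeks, 28.2% of all tested genes lay higher after 65 Gy than in controls, 29.4% after 75 Gy than in controls and 15.6% after 75 than after 65 Gy. At 2 weeks it had 3.78, 4.67 and 6.81 CPM in the controls, 7.33, 5.74 and 5.82 after 65 Gy, and 5.31, 8.78 and 13.7 after 75 Gy. These ranges overlapped, and the highest 75 Gy value was that of library 3134.

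Il1rl1 rose 3.27-fold after 75 Gy at 6 weeks (log2 fold change 1.71 ± 0.27 (SE), adjusted p = 0.000334). After 65 Gy at 6 weeks the log2 fold change was 0.80 (adjusted p = 0.0841). At 2 weeks it was 0.31 (adjusted p = 0.533) for 65 Gy and 0.86 (adjusted p = 0.0327) for 75 Gy, under the fold limit. Without library 3134 the latter was 0.47 (adjusted p = 0.208). Without control 3128 it was 1.13, and without 75 Gy library 3132 it was also 1.13, both past the limit.

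Between the doses, Il1rl1 was 0.91 higher on the log2 scale after 75 than after 65 Gy at 6 weeks, with a 95% interval of 0.26 to 1.56. Its unadjusted p was 0.00944, and the adjusted p of 0.735 did not pass. At 2 weeks the same difference was 0.55, with an interval of -0.02 to 1.13.

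Marker lists of regulatory T cells and mast cells, which carry ST2, were set beside Il1rl1. The 5 regulatory T cell markers, led by Ikzf2, summed to 15.8 to 22.04 CPM in controls and 28.4 to 95.3 in irradiated libraries, and 4 of 5 were called higher after 75 Gy at each time. Ikzf2 itself rose less, with means of 9.82 CPM in the 6-week controls and 13.5 after 75 Gy. Foxp3, the defining factor of regulatory T cells, had a mean of 1.74 CPM in the 6-week controls and 10.2 after 75 Gy. Of 7 tested mast cell markers, 5 were called higher and 1 lower after 75 Gy at 6 weeks, against 0 higher and 2 lower after 75 Gy at 2 weeks. The summed level of the 8 listed mast cell genes was lower in irradiated libraries (209 to 272 CPM) than in controls (296 to 390). Kit, the most abundant gene of that list and also a gene of other lung cells, had a mean of 228.5 CPM in the 6-week controls and 78.5 after 75 Gy. The mast cell protease Cpa3 had 1.03 CPM in the 6-week controls, 3.84 after 65 Gy and 12.2 after 75 Gy, and Tpsab1 reached at most 15 counts. Of 4 basophil markers, 1 was called higher and 1 lower after 75 Gy at 6 weeks. Of 7 tested eosinophil markers, 2 were called higher and 0 lower there, with a median log2 fold change of 0.06. The part of these cells in the Il1rl1 result was not tested.

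Il4ra, at chr7:125552271-125579474, encodes the chain shared by the receptors of IL-4 and IL-13. It was among the highest members and moved the least. Controls spanned 137.3 to 223.7 CPM and irradiated libraries 129.3 to 227.3, in full overlap. Its log2 fold changes were -0.06, 0.14, 0.09 and -0.05, with adjusted p from 0.452 to 0.824. The mean over the 4 effects was 0.03 with a 95% interval of -0.13 to 0.19.

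Il13ra1, at chrX:36112108-36171262, encodes the chain that joins IL-4 receptor alpha to form the receptor for both cytokines on non-lymphoid cells. In the 2-week controls it had 64.2, 65.4 and 55.8 CPM, with 77.3, 77.2 and 75.5 after 65 Gy and 80.8, 80.7 and 100.6 after 75 Gy. In the 6-week controls it had 57.6, 53.8 and 64.6 CPM, with 84.5 and 82.6 after 65 Gy and 88.0, 96.3 and 108.6 after 75 Gy. All 11 irradiated libraries lay above all 6 controls, as did 6.07% of all tested genes.

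The differences of Il13ra1 were small and even. The log2 fold changes were 0.31 (adjusted p = 0.0726) and 0.50 (adjusted p = 0.00372) at 2 weeks, and 0.51 (adjusted p = 0.0103) and 0.74 (adjusted p = 0.000161) at 6 weeks, for 65 and 75 Gy in turn. None reached the fold limit, so that Il13ra1 was not called. The mean over the 4 effects was 0.51 ± 0.07 (SE), with an adjusted p of 3.11e-05. For that mean, 41.6% of all tested genes had an adjusted p at or under 0.05. After 75 Gy it exceeded 65 Gy by 0.19 (95% interval -0.04 to 0.41) at 2 weeks and 0.22 (-0.03 to 0.48) at 6 weeks.

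Il13ra2, at chrX:147383478-147429192, encodes a receptor that binds IL-13 with high affinity and is best known as a decoy, though a role in the induction of TGF-beta has also been described. In the 2-week controls it had 0, 0 and 2 counts, with 13, 0 and 0 after 65 Gy and 13, 6 and 30 after 75 Gy. In the 6-week controls it had 2, 0 and 4 counts, with 7 and 12 after 65 Gy and 14, 27 and 19 after 75 Gy. The 75 Gy libraries lay above the controls at both times, as did 15.5% of all tested genes at 2 weeks and 29.4% at 6 weeks, while after 65 Gy at 2 weeks a single library, 3129, held all counts, and without it the fitted value of Il13ra2 there turned to -2.83 (adjusted p = 0.543).

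The fitted log2 fold changes of Il13ra2 were 4.18 (adjusted p = 0.0431) and 3.28 (adjusted p = 0.0405) after 75 Gy at 2 and 6 weeks, and 2.23 (adjusted p = 0.412) and 2.15 (adjusted p = 0.295) after 65 Gy. At counts this low the fitted values depend on the prior count. From the summed counts, scaled to depth, the ratio to controls was 20 after 75 Gy at 2 weeks, with a 95% exact interval of 5.25 to 170, and 10.2 (4.41 to 28.8) at 6 weeks. After 65 Gy it was 5.32 (1.21 to 48.6) and 4.65 (1.79 to 14.2), and these intervals cover counting error only.

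Both calls of Il13ra2 were near the threshold. Without any filter except 1 count the adjusted p was 0.0531 at 2 weeks and 0.0559 at 6 weeks. With 1 library left out it was as high as 0.158 at 2 weeks, without 3134, and 0.12 at 6 weeks, without 3136. The call was kept in 6 of 17 such fits at 2 weeks and in 10 of 17 at 6 weeks. DESeq2 called the same number of members in each of the 4 comparisons.

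Il4i1, at chr7:44836288-44840809, encodes an L-amino acid oxidase that IL-4 induces in B cells and that is also made by macrophages and dendritic cells under inflammatory signals. In the 2-week controls it had 4.87, 3.23 and 4.16 CPM, with 15.4, 8.91 and 10.5 after 65 Gy and 12.9, 15.6 and 20.2 after 75 Gy. In the 6-week controls it had 4.91, 3.71 and 2.36 CPM, with 14.1 and 9.32 after 65 Gy and 8.12, 12.3 and 9.95 after 75 Gy. All 11 irradiated libraries exceeded all 6 controls, a pattern that 6.07% of tested genes shared.

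Il4i1 was the only member called in all 4 comparisons with controls. It rose 2.84-fold (log2 fold change 1.504 ± 0.29 (SE), adjusted p = 0.00373) and 3.97-fold (1.99 ± 0.29, adjusted p = 0.000299) at 2 weeks, and 3.20-fold (1.68 ± 0.31, adjusted p = 0.00294) and 2.76-fold (1.47 ± 0.29, adjusted p = 0.00128) at 6 weeks, for 65 and 75 Gy in turn. Without library 3138, which leaves 1 library of 65 Gy at 6 weeks, the value there was 1.36 with an adjusted p of 0.0549. Without library 3134 the 75 Gy value at 2 weeks was 1.80 (adjusted p = 0.0011). The effect did not differ detectably between times, by 0.17 (95% interval -0.72 to 1.07) for 65 Gy and -0.52 (-1.37 to 0.33) for 75 Gy.

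The annotated span of Il4i1 overlaps that of Il4i1b by 4517 bases and that of Tbc1d17 by 34 bases, so the division of reads between Il4i1 and Il4i1b is uncertain. Il4i1b had 0 to 7 counts in controls and 0 to 57 in irradiated libraries, against 135 to 1148 for Il4i1. Adding its counts to those of Il4i1 changed no call.

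Summed macrophage and dendritic cell markers were higher in irradiated libraries, as Il4i1 was. The 8 macrophage markers, led by Csf1r, summed to 376 to 427 CPM in controls and 990 to 2524 in irradiated libraries, and 6 of 8 were called higher in each of the 4 comparisons. Csf1r itself rose less, with means of 172.4 CPM in the 2-week controls and 301.2 after 75 Gy, and 177.3 and 247.9 at 6 weeks. The 8 dendritic cell markers, led by Itgax, summed to 154 to 211 CPM in controls and 283 to 582 in irradiated libraries. Of these, 3 and 4 were called higher at 2 weeks and 5 and 6 at 6 weeks, for 65 and 75 Gy in turn. Itgax made up much of the sum, with a mean of 251.8 CPM after 75 Gy at 6 weeks. Zbtb46 went the other way, with means of 34.9 CPM in the 6-week controls and 24.5 after 75 Gy. Ccr7 changed little at 2 weeks, from 25.8 to 27.2 CPM after 75 Gy. Of 6 B cell markers, led by Cd79a, none was called higher in any of the 4 comparisons. The part of these cells in the Il4i1 result was not tested.

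**Figure D2:**
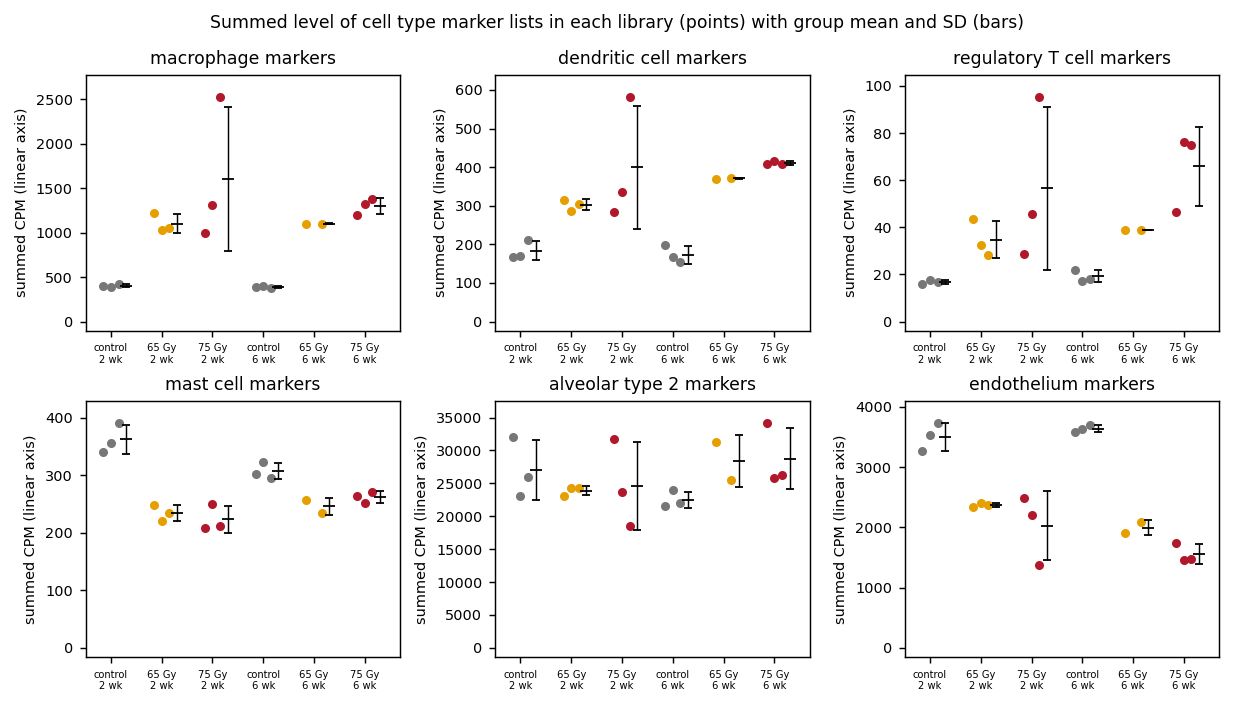
Summed CPM (vertical, linear axis) of 6 marker lists in the 17 libraries, by dose and time (horizontal), with points for libraries and bars for the group mean and SD. Macrophage, dendritic cell and regulatory T cell sums were higher in every irradiated library than in every control, endothelial sums were lower, and alveolar type 2 sums overlapped. Mast cell sums, of which Kit is the most abundant gene, were also lower in every irradiated library.

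**Figure D3:**
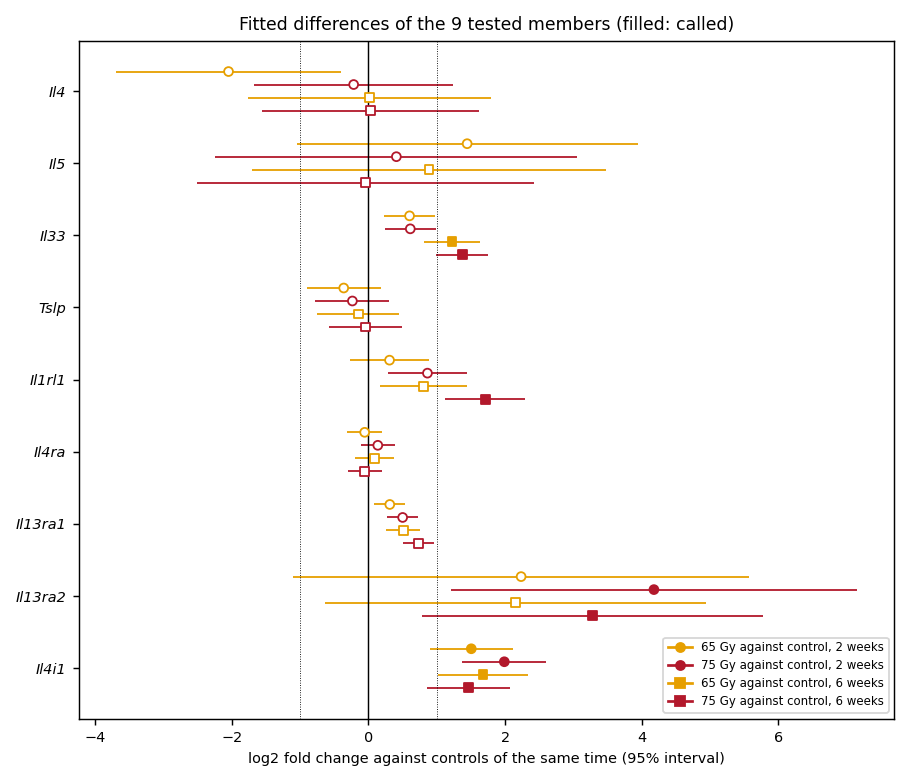
Log2 fold change (horizontal) of the 9 tested members (vertical) in the 4 comparisons with controls of the same time, with 95% intervals as lines. Circles are 2 weeks and squares 6 weeks, orange is 65 Gy and red 75 Gy, filled symbols were called, and dotted lines mark the fold limit. Il4i1 was called in all 4, Il4ra lay near 0 in all 4, and the intervals of Il4, Il5 and Il13ra2 were the widest.

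No member was called between 75 and 65 Gy at either time, where the share of all tested genes called was 0% at 2 weeks and 0% at 6 weeks. By the same test, 1 member had an unadjusted p under 0.05 at each time, and DESeq2 called 0 members in both. These were Il4 at 2 weeks, with a log2 fold change of 1.83 and an adjusted p of 0.693, and Il1rl1 at 6 weeks. For Il33 the 95% interval of the difference was -0.36 to 0.38 at 2 weeks and -0.27 to 0.57 at 6 weeks. For Il4i1 it was -0.10 to 1.07 and -0.86 to 0.44.

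Between the 6-week and 2-week controls, 0 of 9 members were called, where 0.576% of all genes were, and 2 had an unadjusted p under 0.05, Il33 and Il4ra (log2 fold change -0.40, adjusted p = 0.121). The effect of 65 Gy at 6 weeks against 2 weeks gave 0 called members (0.0136% of all genes) and 1 with an unadjusted p under 0.05. That of 75 Gy gave 0 (0.254% of all genes) and 2, Il33 and Il1rl1, the latter at 0.85 (unadjusted p = 0.042, adjusted p = 0.295). DESeq2 called 0 members in these 3 comparisons. Averaged over the 4 effects, 2 members were called, Il4i1 (log2 fold change 1.66, adjusted p = 8.96e-06) and Il13ra2 (2.96, adjusted p = 0.0145), where 8.48% of all genes were called and 6.85% were called higher. Without library 3129, the value of Il13ra2 was 1.69 with an adjusted p of 0.979.

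Other ligands of the type 2 network included genes that were called. Of 9 listed, 5 could be tested, and Il3, Il9, Il25 and Il31 could not. The numbers called higher were 2 and 3 at 2 weeks and 2 and 3 at 6 weeks, for 65 and 75 Gy in turn, and none was lower. For this list and those below, the shares of all tested genes called higher were 3.47%, 5.67%, 4.34% and 7.28%, in the same order. Il6, a cytokine of acute inflammation, was called in all 4, with means of 0.673 and 0.903 CPM in the 2- and 6-week controls and 11.8 after 75 Gy at 6 weeks (log2 fold change 3.70, adjusted p = 0.000218). Its call after 65 Gy at 6 weeks was kept in 13 of 17 fits without single libraries and lost without 3135, 3136, 3137 or 3140, where its log2 fold change was 1.14 to 2.31. Areg, the other ligand called there, was lost without 3136 or 3140. Il10, which restrains inflammation, was called in 3 of 4, with group means of 0.0191 to 0.638 CPM, and lost its call without 3127 or 3129 for 65 Gy at 2 weeks and without 3136, 3137 or 3143 for 75 Gy at 6 weeks. Csf2, which encodes GM-CSF, was called after 75 Gy at 2 weeks (log2 fold change 1.20, adjusted p = 0.00264), and its values in the other 3 comparisons were 0.84, 0.64 and 0.06. Without 3132 the called value of Csf2 was 0.99, under the fold limit.

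Partner chains and receptors of related cytokines numbered 14, all tested, and 2 and 5 were called higher at 2 weeks and 2 and 4 at 6 weeks. Without library 3134, 2 were called after 75 Gy at 2 weeks, and without 3142, 2 were called after 75 Gy at 6 weeks. Csf2rb, the beta chain shared by the receptors of IL-3, IL-5 and GM-CSF, and its paralog Csf2rb2 were called in all 4. Csf2rb rose from 60.2 ± 3.86 to 153.5 ± 3.98 CPM (SD, n = 3) at 2 weeks after 65 Gy (log2 fold change 1.35, adjusted p = 0.00713). The 2 share sequence, so the division of reads between them is uncertain. Osmr was higher by 0.38 to 0.60 on the log2 scale, under the fold limit (adjusted p from 0.000269 to 0.0165).

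Of 18 signalling and feedback genes, Socs3, an inhibitor of cytokine receptor signalling, was called higher in all 4 comparisons, from 45.0 to 119.1 CPM at 2 weeks after 65 Gy (log2 fold change 1.41, adjusted p = 0.000211). Socs1 was added after 75 Gy at 2 weeks, where its libraries ranged from 5.66 to 20.0 CPM. None of the 18 was called lower. Irs1, an adapter of the IL-4 receptor, had log2 fold changes of -0.57 to -0.80, and Stat5b of -0.29 to -0.66, all within the fold limit.

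Genes that IL-4 and IL-13 are known to induce were called in larger numbers at 6 weeks. The share of all tested genes called also rose, from 4.35% to 5.28% after 65 Gy and from 7.74% to 10.4% after 75 Gy. By the test of the difference between times, 0 of the 25 were called after 65 Gy and 1, Mgl2, after 75 Gy. Of 25 such genes, 5 were called higher and 1 lower after 65 Gy at 2 weeks, and 8 higher and 2 lower after 75 Gy. At 6 weeks, 11 were higher and none lower after 65 Gy, and 12 were higher and 1 lower after 75 Gy. The median log2 fold change over the list was 0.26 and 0.69 at 2 weeks and 1.58 and 1.75 at 6 weeks, against medians of all tested genes between -0.01 and 0.04. The list was also lower in the 6-week than in the 2-week controls, with a median log2 fold change of -0.47. In that comparison Retnla was called lower, with means of 68.3 ± 61.9 CPM in the 2-week controls and 13.4 ± 0.96 in those of 6 weeks (SD, n = 3). Without single libraries, the 6 genes called after 65 Gy at 2 weeks became 2 (without 3129 or 3131) or 3 (without 3127).

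Ccl8, a chemokine of alternatively activated macrophages, rose from 1.05 ± 0.37 CPM in the 6-week controls (SD, n = 3) to 30.3 ± 7.60 after 65 Gy (n = 2) and 48.3 ± 20.3 after 75 Gy (n = 3), with log2 fold changes of 4.86 (adjusted p = 1.09e-06) and 5.53 (adjusted p = 1.74e-07). Mrc1, the mannose receptor, was called at 6 weeks after both doses (1.34 and 1.62). Mgl2, a lectin of the same macrophages, was called in all comparisons except 65 Gy at 2 weeks and reached 2.86 (adjusted p = 1.12e-06) after 75 Gy at 6 weeks. Arg1 went the other way in time, called higher at 2 weeks after both doses and at 6 weeks after neither. After 75 Gy it had 25.2 ± 21.6 CPM at 2 weeks and 3.56 ± 0.44 at 6 weeks (SD, n = 3). The 75 Gy libraries of 2 weeks ranged from 9.14 to 49.7 CPM for Arg1. The controls had Arg1 means of 2.55 and 2.07 CPM. Pdcd1lg2 was called higher only after 75 Gy at 2 weeks. Chia1, an acidic chitinase of the airway, was lower after 75 Gy at both times (-1.34 and -1.53), and the 2-week call of Chia1 was lost without 3126, 3133 or 3134. Chil4, a chitinase-like protein, was lower at 2 weeks (-1.99 and -1.62) and higher at 6 weeks (2.20 and 1.95), with 18.2 ± 19.0 CPM in the 2-week controls and 3.72 ± 1.06 in those of 6 weeks (SD, n = 3). The 2-week controls of Chil4 ran from 3.64 to 39.7 CPM and overlapped the irradiated libraries, and without control 3127 the 2-week values were -0.71 (adjusted p = 0.275) and -0.34 (adjusted p = 0.586), so that its lower level at 2 weeks rested on that library. At 6 weeks the call of Chil4 was kept in 13 of 17 fits without single libraries after 65 Gy and in 15 of 17 after 75 Gy. Many of these genes are also macrophage genes, and the part of macrophages, whose summed markers are given above, was not tested.

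**Figure D4:**
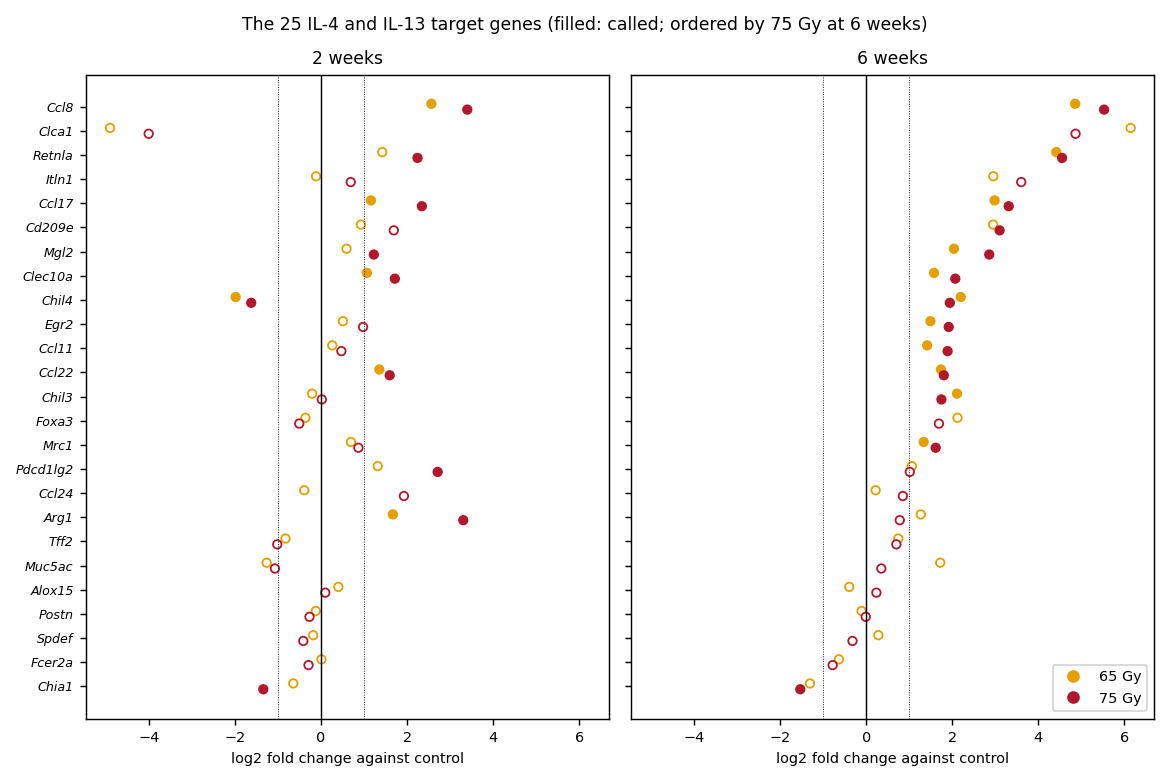
Log2 fold change against controls (horizontal) of the 25 IL-4 and IL-13 target genes (vertical, in the order of the 75 Gy values at 6 weeks), at 2 weeks on the left and 6 weeks on the right, with orange for 65 Gy and red for 75 Gy. Filled symbols were called. Ccl8 was highest of the called genes at 6 weeks, and Chil4 lay below 0 at 2 weeks, which rested on control 3127, and above 0 at 6 weeks.

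Genes of T helper 2 cells and group 2 innate lymphoid cells numbered 14, and 3 and 5 were called higher at 2 weeks and 4 and 6 at 6 weeks. Of all tested genes, 3.47% and 5.67% were called higher at 2 weeks and 4.34% and 7.28% at 6 weeks. Without 3127 or 3129, 1 was called in the 65 Gy comparison of 2 weeks, and in that of 6 weeks 2 were called without 3136 and 1 without 3138. Hpgds, the prostaglandin D2 synthase of hematopoietic cells, was called in all 4 and rose from 2.31 ± 0.36 to 15.0 ± 1.37 CPM (SD, n = 3) after 75 Gy at 6 weeks (log2 fold change 2.69, adjusted p = 1.02e-06). Ccr4, the receptor of Ccl17 and Ccl22, was also called in all 4 (1.51 to 2.33), a call of Ccr4 that was kept in 13 of 17 fits without single libraries for 65 Gy at 2 weeks and in 16 of 17 at 6 weeks. Ptgdr2, the prostaglandin D2 receptor that marks both cell types, was lower after 75 Gy at 6 weeks (-1.06, adjusted p = 0.0468), a call of Ptgdr2 kept in 4 of 17 fits without single libraries. Gata3, the factor that defines both, was not called, with log2 fold changes from -0.33 to 0.04. Pparg had values of 0.20 to 0.83, under the fold limit. Summed regulatory T cell and macrophage markers, given above, were higher in every irradiated library than in every control. The part of these cells in the counts of this list was not tested. Gata3, Foxp3, Cpa3, Areg, Socs1, Arg1, Pdcd1lg2 and Retnla were named after their values were seen.

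Genes with levels most like those of a member across the 17 libraries were described by Pearson's r of log2 CPM, which includes the difference between groups. Nearest to Il33 were Snx7 (r = 0.971), Gch1 (0.962) and Osmr (0.961). Within groups, after removal of the group means, these 3 had r between 0.739 and 0.824. Nearest to Il1rl1 were 3 members of the CD300 receptor family of myeloid cells, Cd300ld4, Cd300ld5 and Cd300ld3 (0.949, 0.949 and 0.944), which are near copies of each other. Il13ra1 was nearest to Cldn2 (0.972), and Il4i1 to AA467197 (0.967). Il4ra was nearest to Mogs (0.962), Il13ra2 to Chchd5 (0.928), Tslp to Gstp-ps (0.862), Il4 to Fpr1 (0.796) and Il5 to Cd2 (0.667).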

How the data were processed

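Total RNA was made into stranded mRNA libraries and sequenced in pairs. After trimming, the authors used HISAT2 for alignment to GRCm38.p6 and StringTie for assembly. They deposited a count of reads per gene as whole numbers, without normalization, and the step from StringTie to these counts is not given in the sources used here. Stranded counting is not stated.

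All 17 libraries entered 1 model in edgeR 4.0.16 (R 4.3.3), with 1 coefficient per group, filterByExpr (minimum count 10, minimum total 15), TMM factors and the quasi-likelihood F test with Benjamini-Hochberg adjustment. Il13 was compared with an exact permutation test over all arrangements, computed with numpy 2.4.6. The exact intervals of the ratios of summed counts used scipy 1.17.1. The alternatives included DESeq2 1.42.0, other filters and factors, and fits without single libraries. Members and lists were chosen with earlier results of these data known. Named list genes have the 3 smallest p of a list for the mean of the 4 effects, or were called opposite to those. On simulated data for 75 Gy at 6 weeks (21609 genes), 33 of 100 genes changed 2-fold and 79 of 100 changed 4-fold were recovered, with 5 false calls. Recovery meant a call by both thresholds. A true 2-fold change lies at the fold limit itself, so its recovery was held down by that limit and does not measure power alone. Only these genes were changed in the simulation, while 36.0% of all tested genes passed the adjusted p in the real comparison. The adjustment was thus stricter in the simulation, and its recovery does not carry over directly.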

Additional observations from a re-analysis of the deposited data

Results flagged for a closer look

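The effect of 75 Gy on Areg, a growth factor of repair that type 2 lymphocytes make, differed between the times by 2.97 on the log2 scale (adjusted p = 0.0329, edgeR's quasi-likelihood test of the interaction). Areg had log2 fold changes of -0.17 at 2 weeks and 2.80 at 6 weeks, with means of 8.21 ± 3.94 CPM in the 2-week controls and 3.01 ± 0.67 in the 6-week controls (SD, n = 3), and 7.31 ± 2.48 and 21.0 ± 7.50 after 75 Gy. The effect of 75 Gy on Mgl2 differed between the times by 1.64 (adjusted p = 0.0317), from 1.23 at 2 weeks to 2.86 at 6 weeks. Without single libraries, the call of Areg was kept in 9 of 17 fits (2.50 to 3.28 on the log2 scale) and that of Mgl2 in 9 of 17 (1.53 to 1.78).

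Il4i1b, which overlaps Il4i1 and is no member, had 57 counts in library 3141 (75 Gy, 6 weeks), against at most 7 in the controls. By itself Il4i1b was not called, with a log2 fold change of 2.99 after 75 Gy at 6 weeks (adjusted p = 0.165, edgeR's quasi-likelihood test) and 7.29 for 75 against 65 Gy at 6 weeks (adjusted p = 0.735), where both 65 Gy libraries were at 0 and the fitted value is no bound.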

How the results depend on the processing

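No member changed sign in a comparison in which it was called, and the cause of the changes below was not tested except where fewer libraries or genes were fitted. By adjusted p alone, the numbers of members called rose to 2 after 65 Gy and 5 after 75 Gy at 2 weeks, to 1 between the controls and to 5 for the mean of the 4 effects. After 75 Gy at 2 weeks, 1 member was called with no filter except 1 count, with at least 10 counts in every library (a filter that Il13ra2 did not pass) and with only the groups compared. At least 10 counts in every library also left 1 member for the mean of the 4 effects. Without single libraries the numbers ranged from 1 to 2 after 75 Gy at 2 weeks, where 11 of the 17 fits lost Il13ra2 and 2 of these added Il1rl1 (without 3128 or 3132), from 1 to 2 after 65 Gy at 6 weeks (Il4i1 lost without 3138), from 3 to 4 after 75 Gy at 6 weeks (7 of 17 fits lost Il13ra2), from 0 to 1 between the controls (Il33 added without 3127 or 3128) and from 1 to 3 for the mean of the 4 effects (Il13ra2 lost without 3129, Il33 added without 3126, Il1rl1 added without 3128). When 1 library of 65 Gy at 6 weeks was left out, the other was assumed to vary like the other groups. RLE factors and DESeq2 kept the numbers of members called in all comparisons with controls. With only the groups compared, the calls of Socs1 after 75 Gy (adjusted p = 0.0611) and Chil4 after 65 and 75 Gy (0.116 and 0.216) at 2 weeks were lost, as was that of Areg between times (0.0516). No paired analysis was possible because library numbers are unique and link no libraries across groups. Depth limits Il4, Il5, Il13 and Il13ra2, for which only large changes could have been detected.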
